A study of Mus musculus with 20 samples.

Results

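Neurofilaments, peripherin and Map1b are the neuronal cytoskeleton genes described here, in cells sorted as Trpv1 neurons from mouse dorsal root ganglia (DRG). The 6 genes are Nefl, Nefm, Nefh, Ina, Prph and Map1b, of 37620 genes listed and 28233 with a value in any library. They were picked by name and matched by Ensembl identifier (Map1b is written Mtap1b in the annotation), with their values at the 2 spinal levels already known, so their lumbar to sacral differences are given as a description with no test. All 6 had a value in every library and passed the filter on low values.

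Sorted cells of 5 male and 5 female donors gave 20 libraries, 10 from lumbar DRG (L4-5) and 10 from sacral DRG (L6-S1) of the same donors. In all 4 groups the labels give the strain as homozygous Trpv1tm2Bbm and the age as 6 to 8 weeks, and name no treatment. These mice carry a placental alkaline phosphatase and nuclear lacZ reporter in the Trpv1 locus. The cells sorted were the brightest ones for the fluorescent product of galactosidase, so the sort aimed at strong reporter cells rather than all Trpv1 neurons. Transcripts of glial genes were also abundant in the libraries, as given below, so the values are not those of neurons alone. Each donor label carries 2 animal numbers where the study counts one mouse per donor, and no unsorted or other-genotype library was analysed here.

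Neurofilaments are the intermediate filaments of axons. The light chain (Nefl) forms the core with the medium (Nefm) and heavy (Nefh) chains, whose long tails project from the filament, and alpha-internexin (Ina) or peripherin (Prph) can join them. In the DRG, the heavy chain is a mark of neurons with myelinated axons, whereas peripherin is most abundant in small neurons with unmyelinated axons. Map1b is no filament protein but binds microtubules, and it is known from growing axons and from adult sensory neurons.

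Promoter sequences from RefSeq (GRCm38.p6) were held for 3 of the 6 genes, Map1b, Prph and Ina, and these are shown. None was held for Nefl, Nefm or Nefh. The 3 genes shown were higher in sacral DRG in every donor, but so were Nefl and Nefm. Each is the 250 bases before the annotated start, written in the direction of the gene. Capitals mark TATAAA on either strand (TTTATA on the other) and the GC box GGGCGG on either strand (CCGCCC on the other), which do not overlap each other here. The windows lie at chr13:99516603-99516852 (minus strand) for Map1b, chr15:99054924-99055173 (plus strand) for Prph and chr19:47014431-47014680 (plus strand) for Ina.
Map1b: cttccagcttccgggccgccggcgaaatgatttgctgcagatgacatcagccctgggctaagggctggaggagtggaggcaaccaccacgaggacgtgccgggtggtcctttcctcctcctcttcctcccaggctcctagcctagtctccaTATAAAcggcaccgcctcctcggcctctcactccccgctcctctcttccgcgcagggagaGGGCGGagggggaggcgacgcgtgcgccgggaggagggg
Prph: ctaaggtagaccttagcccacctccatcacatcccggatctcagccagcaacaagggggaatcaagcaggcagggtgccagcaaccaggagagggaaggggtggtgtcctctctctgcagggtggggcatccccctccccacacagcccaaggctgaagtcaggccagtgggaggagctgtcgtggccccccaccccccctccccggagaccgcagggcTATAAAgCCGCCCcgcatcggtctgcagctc
Ina: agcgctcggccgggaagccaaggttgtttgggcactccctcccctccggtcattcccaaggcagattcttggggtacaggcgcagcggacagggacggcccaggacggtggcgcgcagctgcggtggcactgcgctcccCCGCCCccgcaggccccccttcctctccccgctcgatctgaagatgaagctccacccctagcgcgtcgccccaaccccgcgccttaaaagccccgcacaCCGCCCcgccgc

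TATAAA stood 99 bases before the start of Map1b and 31 bases before that of Prph, and it was not in the Ina window. Of 32851 promoter windows of the same length, 12.4% held TATAAA on either strand. The GC box was in all 3 windows, against 32.7% of all windows. CCAAT, searched on both strands, was in none of the 3 (33.8% of all windows), and neither was the cyclic AMP response element TGACGTCA (1.5%). The 3 windows were rich in G and C, at 66.4% for Map1b, 65.2% for Prph and 70.8% for Ina, where the median window had 52.4%.

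Levels are log2 RPKM as the authors deposited them, which counts reads by gene length and library size on a log scale, so that genes can be compared per length. Depth did not limit these genes. Between 43499216 and 65542378 reads per library were counted on genes, as worked back from the deposited values, and the lowest count of any member in a library was 974 reads, for Ina. Over the 20 libraries Map1b had the highest mean level, 9.0 ± 0.69 (SD, n = 20), and ranked 42 of the 17138 genes with a value in all libraries. Nefl was at 8.83 ± 0.42 (rank 46) and Prph at 8.50 ± 0.47 (rank 57). Nefm followed at 7.02 ± 0.37 (rank 191), Nefh at 5.03 ± 0.36 (rank 1062) and Ina at 3.9 ± 0.56 (rank 2571). Together, the 6 genes took 0.351% to 1.2% of the reads of a lumbar library (median 0.495%) and 0.965% to 1.73% of a sacral one (median 1.38%).

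The lower part of this order held in every library. Prph exceeded Nefm, Nefm exceeded Nefh and Nefh exceeded Ina in 20 of 20 libraries. At the top the order was less fixed. Map1b exceeded Nefl in 3 of 10 lumbar libraries, with a mean difference within a library of -0.04 ± 0.40, and in 9 of 10 sacral libraries (0.38 ± 0.34). Nefl exceeded Prph in 19 of 20 libraries by 0.33 ± 0.20.

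For the light chain, Nefl (ENSMUSG00000022055), lumbar libraries ran from 8.07 to 8.89 with a median of 8.53, and sacral libraries from 8.78 to 9.60 with a median of 9.14. The ranges overlapped, since 2 lumbar libraries lay above the lowest sacral one. The difference, lumbar minus sacral, was -0.66 (standard error 0.10), a 1.58-fold higher level in sacral DRG. It was negative in all 10 donors, from -1.32 to -0.19.

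Nefm (ENSMUSG00000022054), the medium chain, ran from 6.46 to 7.01 in lumbar DRG (median 6.69) and from 6.99 to 7.66 in sacral DRG (median 7.32). Only 1 lumbar library reached the sacral range. Its difference was -0.60 (standard error 0.08), or 1.52-fold, and again all 10 donors had the higher level in sacral DRG.

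The heavy chain behaved otherwise. Nefh (ENSMUSG00000020396) ran from 4.50 to 5.86 in lumbar libraries (median 4.99) and from 4.41 to 5.46 in sacral libraries (median 5.04), and the ranges lay on top of each other. The mean difference was 0.03 (standard error 0.10), with 5 donors higher at each level.

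Ina (ENSMUSG00000034336) ran from 2.91 to 4.13 in lumbar DRG (median 3.49), with the largest SD of the filament genes at a level (0.43), and from 3.84 to 4.78 in sacral DRG (median 4.32). All 10 donors were higher in sacral DRG, by between 0.04 and 1.38, and the mean difference was -0.84 (standard error 0.13), or 1.79-fold. Prph (ENSMUSG00000023484) ran from 7.70 to 8.68 in lumbar DRG (median 8.11) and from 8.60 to 9.13 in sacral DRG (median 8.79). Its sacral libraries were the tightest of any member at a level, with an SD of 0.19 against 0.39 in lumbar DRG. The difference was -0.71 (standard error 0.12), or 1.63-fold, negative in all 10 donors.

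Map1b (ENSMUSG00000052727) had the largest difference of the 6. Lumbar libraries ran from 7.96 to 9.60 (median 8.33) and sacral libraries from 8.82 to 9.92 (median 9.58), a difference of -1.07 (standard error 0.15) or 2.10-fold. All 10 donors were higher in sacral DRG. The 2 groups overlapped through 2 lumbar libraries, those of female donor F2 at 9.60 and male donor M1 at 8.96. In these same 2 libraries Ina stood at 4.13 and 4.10, Prph at 8.60 and 8.67 and Nefm at 6.98 and 7.01. The lumbar library of donor F2 also had the highest nociceptor marker mean of the lumbar libraries (6.79) and the next to lowest glial marker mean (5.36). That of M1 had a nociceptor mean of 6.53 (rank 2) and a glial mean of 5.57 (rank 7 of 10 from the highest). The lumbar library of donor F5 had the lowest glial mean (5.32) and the highest general neuron marker mean (6.20), with Map1b at 8.48. A link of Map1b to these means was not tested. Without donor F2 the Map1b difference was -1.18.

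**Figure D1:**
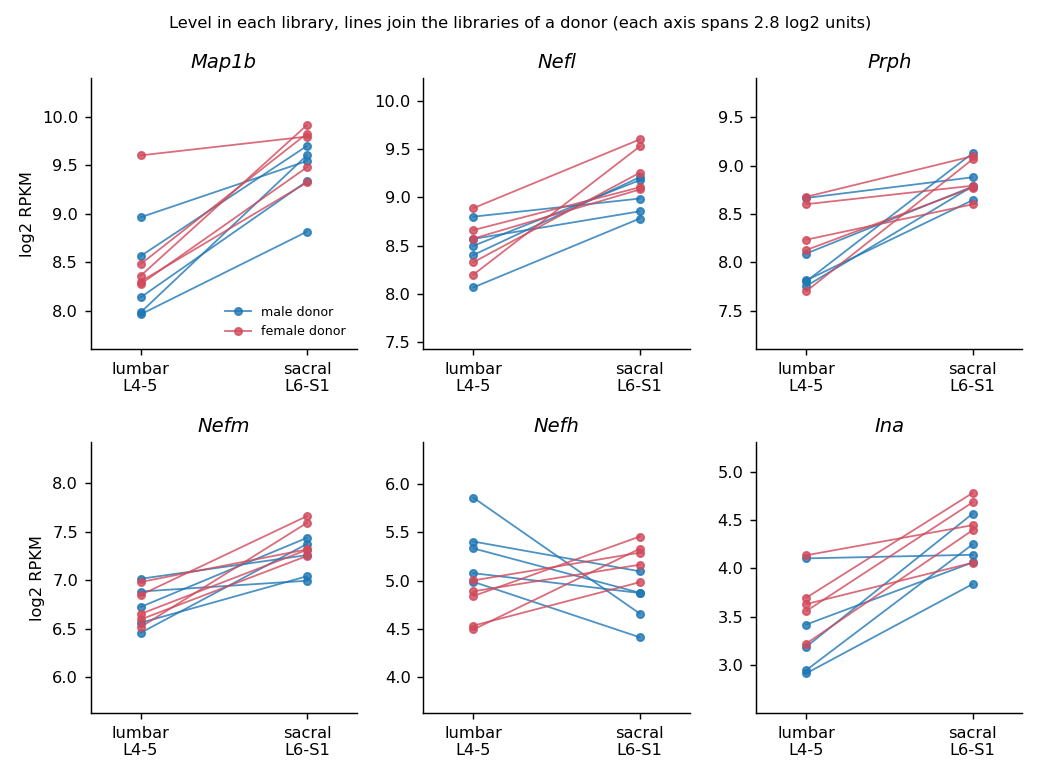
Level (log2 RPKM) of each gene in the lumbar and sacral library of each donor, with a line joining the libraries of a donor, male in blue and female in red. In 5 panels all 10 lines rise to sacral DRG, whereas in the Nefh panel the 5 male lines fall and the 5 female lines rise.

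By the rule used for all genes (limma, adjusted p of at most 0.05), 5 of the 6 genes were differentially expressed genes (DEGs) higher in sacral DRG, where 30.3% of the 16304 genes tested were, and 0 were DEGs higher in lumbar DRG, where 15.3% were. The choice of the genes used this contrast, so nothing is read from these counts.

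How large the differences are depends on what a library is scaled to. The median of all tested genes was -0.11 on the deposited scale. It was -0.02 after quantile normalization, -0.01 with TMM scaling of the worked-back reads, -0.43 when scaled to total reads and 0.46 when each library was centred on 10 general neuron markers. A scaling that shifts all genes of a library alike leaves the distance from that median nearly as it is, and quantile normalization is the 1 of the 5 that does not work as such a shift. Measured from the median, under these 5 scalings Map1b lay between -1.03 and -0.96 and Ina between -0.74 and -0.62. Prph lay between -0.63 and -0.60, Nefl between -0.59 and -0.55 and Nefm between -0.50 and -0.33, the last after quantile normalization. Nefh lay above the median under all 5, by 0.13 to 0.27, although its plain difference was negative when scaled to total reads (-0.30) and positive under the other 4.

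The general neuron markers themselves (Uchl1, Snap25, Eno2, Rbfox3, Isl1, Pou4f1, Elavl4, Stmn2, Tubb3 and Syt1) were all 10 DEGs higher in sacral DRG, with a median difference of -0.53. Set against their mean within a library, Nefl differed by -0.09 ± 0.28 (SD, n = 10 donors) and was higher in sacral DRG in 5 of 10 donors. This split fell by sex, since all 5 males were higher in lumbar DRG (0.13 ± 0.12, n = 5) and all 5 females in sacral DRG (-0.31 ± 0.20). Nefm differed by -0.03 ± 0.27 and Prph by -0.14 ± 0.24, each higher in sacral DRG in 6 of 10 donors. Ina kept a difference of -0.27 ± 0.34 (8 of 10 donors) and Map1b one of -0.50 ± 0.37 (9 of 10 donors). Nefh turned to 0.60 ± 0.72, higher in lumbar DRG in 8 of 10 donors. In males the Nefh value was 1.21 ± 0.39 (5 of 5 donors), and in females it was -0.016 ± 0.29 (3 of 5).

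**Figure D2:**
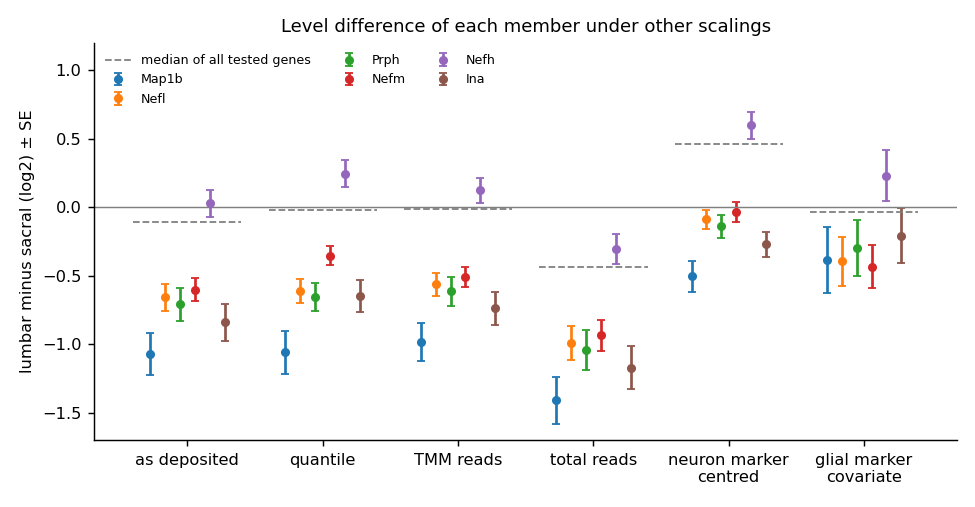
Lumbar minus sacral difference (log2) of each gene with its standard error under 6 settings; the dashed lines give the median of all tested genes under each setting. Map1b stays lowest of the 6 genes in 5 settings and Nefh stays highest in all 6, while the whole group moves with the scaling.

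Glial markers moved the other way between the levels. Of 12, 11 were DEGs higher in lumbar DRG and 0 higher in sacral DRG, with a median difference of 1.04, and their summed level ran from 10.996 to 11.99 in lumbar and from 10.30 to 11.05 in sacral libraries. Pmp22, at 9.64 in lumbar and 9.44 in sacral DRG, was the marker that did not pass. Of the 6 macrophage markers 3 were tested and 2 were higher in lumbar DRG, as were 4 of 6 vascular and connective tissue markers. With the glial marker mean of a library as a covariate, the differences were -0.38 for Map1b (standard error 0.24), -0.43 for Nefm (0.15), -0.39 for Nefl (0.18), -0.30 for Prph (0.20), -0.21 for Ina (0.20) and 0.23 for Nefh (0.19). The glial mean was higher in lumbar DRG in all 10 donors, so the part of glial RNA cannot be told apart from that of the level, and fewer cells of a type cannot be told from less RNA per cell in such libraries. Of 8 nociceptor markers, 6 were higher in sacral DRG, and the median difference of the list was -0.68. With no unsorted library to compare, these differences do not check the sort. Trpv1, whose locus carries the reporter, was at 3.74 in lumbar and 4.70 in sacral DRG (difference -0.96, standard error 0.15, limma adjusted p = 3.59e-05), and the sodium channel gene Scn11a differed by -1.19 (standard error 0.15, adjusted p = 7.58e-06). Calca, at 9.98 and 9.82, and Tac1, at 9.21 and 9.31, did not pass.

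The balance between the filament genes within a library is left as it is by any scaling that shifts all genes of a library alike, but not by quantile normalization. Nefl exceeded Nefm by 1.81 ± 0.13 (SD, n = 20), with a range of 1.51 to 2.04, which makes this the steadiest pair of those compared. Lumbar libraries gave 1.78 ± 0.16 and sacral libraries 1.83 ± 0.10, and by donor the lumbar minus sacral change was -0.06 ± 0.17, above 0 in 5 of 10 donors. After quantile normalization that change was -0.26. The size of this step rests on gene length. The annotated exons of Nefm (chr14:68700647-68742903 of NCBIM37, minus strand) cover 5782 bases in all, and those of Nefl (chr14:68701920-68707152, plus strand) cover 3380. The last exon of a long Nefm transcript runs over the first exon of Nefl, so that 1108 exonic bases belong to both genes on opposite strands, 32.8% of Nefl and 19.2% of Nefm. How reads over these bases were assigned is not given in the sources used here. With the 3334 bases of the shorter Nefm transcript as its length, the step would be 1.01.

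Against Nefh, the light and medium chains changed their balance between the levels. Nefl exceeded Nefh by 3.46 ± 0.44 in lumbar DRG and by 4.14 ± 0.23 in sacral DRG (n = 10 each). Nefm exceeded it by 1.68 ± 0.37 and 2.31 ± 0.23. In male donors the Nefm to Nefh difference was 1.39 ± 0.25 in lumbar and 2.44 ± 0.12 in sacral libraries (n = 5 each), and the 2 groups did not overlap (1.03 to 1.68 against 2.33 to 2.63). In female donors it was 1.96 ± 0.22 and 2.18 ± 0.26, with overlapping ranges. The lumbar minus sacral change by donor was -1.04 ± 0.22 in males and -0.22 ± 0.30 in females.

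Ina and Prph were set against Nefl. Nefl exceeded Ina by 5.02 ± 0.31 in lumbar and 4.84 ± 0.24 in sacral libraries, a change by donor of 0.18 ± 0.39. It exceeded Prph by 0.35 ± 0.22 and 0.30 ± 0.19, a change of 0.05 ± 0.32. Over all donors both changes were smaller than the SD between donors. The Nefl to Prph change was 0.29 ± 0.26 in males, above 0 in 5 of 5, and -0.18 ± 0.14 in females, above 0 in 1 of 5. Ina (chr19:47089188-47099817, plus strand) shares 456 exonic bases with Nt5c2 on the opposite strand. No annotated gene overlaps Prph (chr15:98885605-98889409, plus strand), Nefh (chr11:4838757-4848067, minus strand) or Map1b (chr13:100191419-100286557, minus strand) on this build.

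**Figure D3:**
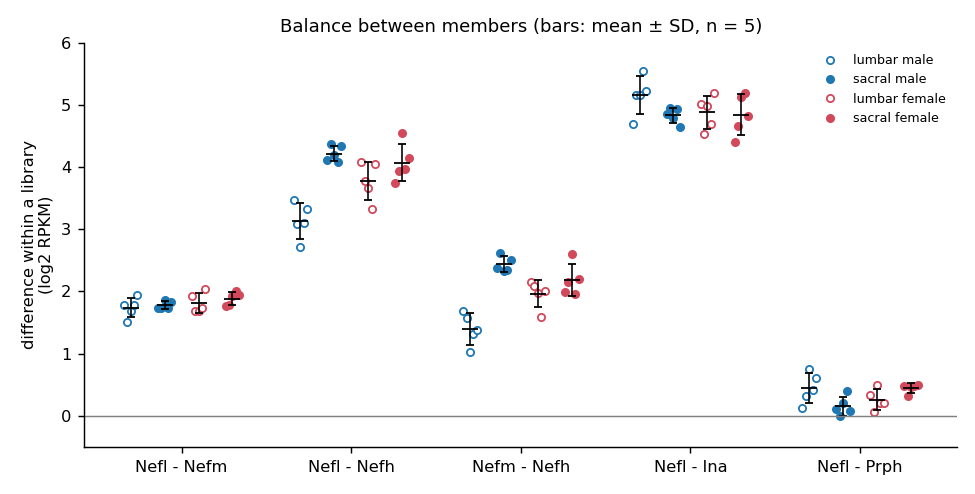
Difference in log2 RPKM between 2 genes of the same library, for 5 pairs in the 4 groups (points, libraries; bars, mean ± SD, n = 5). The Nefl to Nefm step is alike in all groups, and the steps from Nefl and Nefm to Nefh are smallest in lumbar male libraries.

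The rule that chose the genes did not use sex, and the members were tested between female and male libraries within a level. For Nefh the opposite level differences of the sexes were known beforehand, so its tests here are no independent evidence. In lumbar DRG 0 of 6 members were DEGs (limma with donor block, adjusted over all genes), where 7 of 16386 genes, 0.0427%, were. In sacral DRG 0 of 6 were, where 6 of 16321, 0.0368%, were. At an unadjusted p under 0.05 there was 1 member at each level, Nefh. Of all genes tested, 1864 of 16386 in lumbar and 1320 of 16321 in sacral DRG were under it, so nothing is read from that count. The fits on worked-back reads also made 0 calls among the members.

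In lumbar DRG the Nefh levels were 5.33, 4.99, 5.86, 5.40 and 5.08 in male donors M1 to M5 and 4.50, 4.89, 4.54, 5.002 and 4.84 in female donors F1 to F5. The sexes met only at the lowest male and the highest female library. Females were lower by 0.58 (female minus male -0.58, standard error 0.15, limma adjusted p = 0.227). In sacral DRG the order was the opposite. The males stood at 4.87, 4.41, 4.66, 5.10 and 4.87 and the females at 5.33, 5.16, 4.98, 5.29 and 5.46, a difference of 0.46 (standard error 0.15, limma adjusted p = 0.477). Only 1 male library, that of M4, lay within the female range.

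The test of whether the sex difference itself differed between the levels gave -1.04 for Nefh (standard error 0.20, limma adjusted p = 0.246), which did not pass, and the gene ranked 2 of 16304 by its unadjusted p. No gene passed this test (0.0% of those tested, with 668 at an unadjusted p under 0.05). The pattern was known before this test was chosen. Leaving out a donor moved the difference between -1.13 and -0.88, and it was -1.23 with libraries centred on the neuron markers (limma adjusted p = 0.0556). That centring moved the median of all genes from 0.01 to -0.17 and the count at an unadjusted p under 0.05 from 668 to 1238. Fitted without the donor block the adjusted p was 0.797 and with the donor as a fixed block 0.29.

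Among the other members the lumbar sex differences ran from -0.01 for Nefm to 0.33 for Ina (limma adjusted p from 0.541 to 0.982) and the sacral ones from 0.02 for Prph to 0.31 for Nefl (0.624 to 0.987). The differences between the levels ran from -0.25 for Nefl to 0.22 for Prph (adjusted p = 1.0 for each). With libraries centred on the neuron markers, Nefl and Nefm also had opposite signs in lumbar and sacral DRG. Nefl was at -0.20 in lumbar and 0.23 in sacral DRG, and Nefm at -0.27 and 0.13. The difference between the levels was -0.43 for Nefl (standard error 0.14, limma adjusted p = 0.538) and -0.40 for Nefm (standard error 0.14, adjusted p = 0.554). That centring moved the median of all genes to -0.28 in lumbar DRG, -0.09 in sacral DRG and -0.17 for the difference between the levels. Both lumbar values lay above that lumbar median, so nothing is read from their negative sign. On the deposited scale all 6 members had the higher mean in females in sacral DRG, and none of these differences passed. The median of all genes there was -0.02. The count rests on the scaling, since Prph turned to -0.023 after quantile normalization and -0.056 with neuron centring. The glial marker mean also differed by sex. In lumbar DRG it was 5.65 ± 0.34 in females and 6.02 ± 0.35 in males (SD, n = 5 each). In sacral DRG it was 4.64 ± 0.39 and 5.07 ± 0.41. The part of glial RNA in the sex differences of the members was not tested.

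Markers of large neurons with myelinated axons were read beside Nefh, since that class is known for the heavy chain. Of 10 such markers 8 were tested, and 6 of these had a sex difference that changed between the levels in the same direction as Nefh and 2 the opposite. Their median was -0.27, with 0 DEGs. The median of all genes tested was 0.01, and the share of all genes going each way was not counted, so nothing is read from the 6 and 2. Their summed level ran from 4.81 to 5.59 in lumbar males, 5.12 to 5.44 in lumbar females, 4.98 to 5.50 in sacral males and 5.22 to 5.62 in sacral females, so the groups overlapped. Pvalb and Calb2 each lacked a value in some libraries. The part of these neurons in the Nefh values was not tested. All 10 general neuron markers and all 8 nociceptor markers went the opposite way to Nefh in this comparison, again with 0 DEGs. The 3 macrophage markers tested did so too. Of 12 glial markers 3 went the way of Nefh and 9 the opposite, and of 6 vascular and connective tissue markers 3 went each way. As the share of all genes going each way was not counted, nothing is read from these counts either.

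The libraries in which a member was high could be described by the genes whose levels followed it most closely. The comparison took Pearson r over the 20 libraries among 12795 genes, which share depth, spinal level and cell make-up, so no p is given. Nefl and Nefm had each other as the closest gene, with r of 0.95 (0.85 on deviations from the group means). Next to Nefl came Fbxw7, a subunit of a ubiquitin ligase (0.95), and Atp1b1, a subunit of the sodium pump (0.95), and next to Nefm Prkcb, a protein kinase C (0.95), and again Atp1b1 (0.95). Ina was followed by Bcam (0.97), Ret, a receptor of neurotrophic factors (0.97), and Mapk8ip3, a cargo adaptor of axonal transport (0.97). Prph was followed by Hsp90ab1, a chaperone (0.99), the predicted gene Gm13498 (0.99) and Armcx2 (0.97). Map1b was followed by Dync1h1, the heavy chain of cytoplasmic dynein (0.99), Disp2 (0.99) and Slc7a14 (0.99).

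Nefh had looser company. Its closest genes were Adam23 with r of 0.82, Scn8a, a sodium channel of nodes of Ranvier (0.81), and Lgi3 (0.80), and r on deviations from the group means was 0.79, 0.80 and 0.75. Its r was 0.22 with Nefl and 0.25 with Nefm, and these rose to 0.44 and 0.56 once the group means were removed. Among the other 5 members r lay between 0.82 (Nefl and Map1b) and 0.95 (Nefl and Nefm). That r holds the level difference known when the members were chosen. On deviations from the group means it lay between 0.43 (Nefl and Map1b) and 0.85 (Nefl and Nefm). Nefh with the other members then lay between 0.20 (Prph) and 0.56 (Nefm), so the ranges overlapped.

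The filament genes were then set beside other genes of the axonal cytoskeleton, which were not among the members. Of 77 such genes in 4 lists, 75 were tested, 58 were DEGs higher in sacral DRG (77.3%, where 30.3% of all genes were) and 3 were higher in lumbar DRG (4.0%, against 15.3%). Their median difference was -0.45, where that of all genes was -0.11. The lists were chosen with earlier results of these data known, so the counts are no independent evidence of a direction. With libraries centred on the neuron markers, of which Stmn2 and Tubb3 are also on these lists, the counts were 8 and 30, and with the glial marker mean as a covariate they were 2 and 0.

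Microtubule-associated proteins are the group to which Map1b belongs. Of 24, 20 were higher in sacral DRG and 1 in lumbar DRG, with a median of -0.44. Map1a, a relative of Map1b known from mature neurons, rose from 6.19 in lumbar to 7.16 in sacral DRG (difference -0.97, standard error 0.14, limma adjusted p = 1.59e-05). Map2, known from dendrites and cell bodies, rose from 2.23 to 3.13 (-0.90, standard error 0.09, adjusted p = 6.39e-07). The 1 higher in lumbar DRG was Dpysl4, a collapsin response mediator, at 0.40 and -0.50 (difference 0.89, standard error 0.15, adjusted p = 8.36e-05).

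Tubulins form the microtubules themselves. Of 14 listed, 12 were tested, 10 were higher in sacral DRG and 0 in lumbar DRG, with a median of -0.61. Tuba4a differed by -0.75 (standard error 0.11, limma adjusted p = 2.17e-05) and Tubb2a by -0.72 (standard error 0.10, adjusted p = 2e-05). Tuba8 and Tubb1 were too low to be tested.

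Proteins that link, phosphorylate, turn over or carry neurofilaments made up the third list. Of 21, 16 were higher in sacral DRG, 1 was higher in lumbar DRG and 4 did not pass, with a median of -0.42. Dync1h1, the motor of retrograde transport that also followed Map1b most closely, rose from 4.68 to 5.83 (difference -1.15, standard error 0.16, limma adjusted p = 1.84e-05). Kif5a, a kinesin that carries neurofilaments outward, rose from 6.51 to 7.27 (-0.77, standard error 0.11, adjusted p = 2.66e-05). The 1 higher in lumbar DRG was Macf1, a linker of microtubules and actin, named after its value was seen (0.23, standard error 0.09, adjusted p = 0.0484, 8 of 10 donors).

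Of 18 genes of the spectrin, ankyrin and actin skeleton of the axon, 12 were higher in sacral DRG and 1 in lumbar DRG, with a median of -0.49. Gap43, a growth cone protein, differed by -0.75 (standard error 0.09, limma adjusted p = 2.42e-06) and Epb41l3, a membrane linker, by -0.74 (standard error 0.12, adjusted p = 4.84e-05). Add3, an adducin, was higher in lumbar DRG by 0.62 (standard error 0.10, adjusted p = 4.05e-05). Add1 and Add2 of the same family differed the other way, by -0.47 (standard error 0.08, adjusted p = 0.000164) and -0.69 (standard error 0.12, adjusted p = 8.13e-05), and are named after their values were seen.

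Intermediate filaments other than the neuronal ones were the last group. Of 12 listed, 6 were tested, 2 were higher in sacral and 2 in lumbar DRG, and the median was 0.01. Among those tested were the nuclear lamins Lmna (-0.43), Lmnb1 (0.26) and Lmnb2 (-0.23), named after their values were seen. Lamins are not confined to other cells, so these counts and the median are no clean contrast to the neuronal filaments. Vim, the vimentin of glia and connective tissue, was at 7.73 in lumbar and 7.13 in sacral DRG (difference 0.60, standard error 0.13, limma adjusted p = 0.000688), and Nes, known from progenitors and Schwann cells, at 2.82 and 2.01 (0.80, standard error 0.19, adjusted p = 0.00193). Both were higher in lumbar DRG in 10 of 10 donors, beside glial markers that were higher there too, and with the glial mean as a covariate they turned to -0.16 and -0.54. Synm, a synemin that joins other filaments, differed by -0.68 (standard error 0.11, adjusted p = 5.81e-05) in the same direction as 5 of the 6 members.

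**Figure D4:**
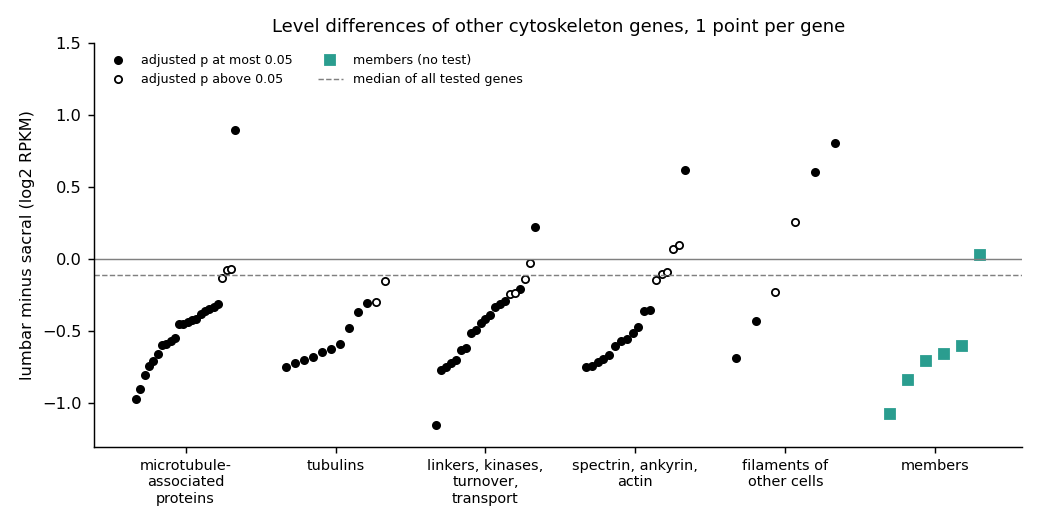
Lumbar minus sacral difference (log2 RPKM) of each tested gene in 5 cytoskeleton lists, filled where the limma adjusted p is at most 0.05, and of the 6 members as squares with no test. The 4 axonal lists have medians from -0.61 to -0.42, below the median of all genes (dashed, -0.11), and 5 of the 6 members lie from -1.07 to -0.60 while Nefh lies at 0.03.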

How the data were processed

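RNA-seq values of 20 libraries were taken from one table, and the labels gave the group of each library. Per the labels, RNA was amplified to double-stranded cDNA, so the strand was not kept. The authors mapped reads with Subread to mm9, used those with a unique position, assigned them to Ensembl genes by featureCounts and scaled them by TMM and voom (edgeR 3.12.1, limma 3.26.9, R 3.2.2 in the submitters' processing notes). The deposited values are log2 RPKM, with no number of reads added before the log and 319449 empty cells. Every library has a median of 0.93, a step the methods do not describe.

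Positions came from the annotation of the same build (NCBIM37). Low values step by whole reads. Reads were worked back on that basis, and 98.1% of 430293 values came out whole within 0.01 of a read. They were used for depth and for alternatives, and intervals of depth cover counting error only.

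Genes with a mean log2 RPKM above -1 in at least 1 group, over at least 3 values, were kept (16422). limma 3.58.1 with statmod 1.5.0 in R 4.3.3 fitted a mean for each of 4 groups, the donor as a random block (correlation 0.17) and moderated variances with a trend on the mean. Adjustment was by Benjamini-Hochberg over all genes at 0.05. Deviations from the group means were shared by libraries of the same donor (mean correlation 0.176, against -0.044 for different donors of a sex). The pairing comes from the animal numbers in the labels. As the labels do not say whether donors are single or pooled animals, p-values measure the spread between these donors.

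Alternatives were other filters, pseudocounts of 1 and 0.1 RPKM, other scalings and donor models, no trend, array weights, each sex alone, each donor left out, a glial covariate and an adjusted p of 0.01. One more, the shorter Nefm length, was chosen after seeing the data. The members, gene lists and marker lists were chosen with earlier results of these data known. Genes named in the text are the 6 members, the 2 genes of each cytoskeleton list with the largest difference in each direction among DEGs changed one way in all 10 donors, the 3 genes with the highest r for each member, and markers beside a result. Scripts were tested on simulated data. Python 3.11.15, pandas 2.3.3, numpy 2.4.6, scipy 1.17.1 and matplotlib 3.10.9 were used.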

Additional observations from a re-analysis of the deposited data

Results flagged for a closer look

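Map1b in the lumbar library of female donor F2 stood at 9.60, apart from the other 4 lumbar female libraries, which ran from 8.28 to 8.48. Its gap to the nearest was 0.845 of the whole range, above the limit of 0.71 for 5 samples. Of 36 groups of 5 values looked at, this was the 1 past the limit, and chance puts about 1 in 20 there. Nefh was marked because its level difference went opposite ways in the sexes, with all 5 male donors higher in lumbar DRG (0.21 to 1.198) and all 5 female donors higher in sacral DRG (-0.83 to -0.27). The difference between the sexes was -1.04 (limma adjusted p = 0.246), which does not pass over all genes.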

How the results depend on the processing

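Centring libraries on the neuron markers moved the level difference to -0.089 for Nefl, -0.033 for Nefm, -0.27 for Ina, -0.14 for Prph and -0.50 for Map1b, and scaling to total reads moved Nefl to -0.99 and Nefm to -0.93. The glial covariate moved Ina to -0.21 and Map1b to -0.38. Leaving out a donor kept Map1b between -1.18 and -1.005 and Nefh between -0.05 and 0.07. The small Nefh difference had no fixed sign, at 0.55 in male and -0.49 in female donors alone, -0.30 scaled to total reads, -0.05 without the third male donor and just below 0 with array quality weights. The other cytoskeleton genes called higher in sacral DRG went from 58 to 8 with neuron centring and to 2 with the glial covariate, and those higher in lumbar DRG from 3 to 5 with quantile normalization, 30 with neuron centring, 1 in female donors alone and 0 with the glial covariate. The cause was not tested. Over all genes the share of DEGs higher in sacral DRG was 66.5%, against 52.8% after quantile normalization, 52.7% with TMM scaling of reads, 87.2% scaled to total reads, 4.01% with neuron centring and 94.2% of 104 DEGs with the glial covariate. The donor block moved few calls: without it 57 and 2 cytoskeleton genes were called, and with the donor as a fixed replicate block 58 and 2. Members called between the sexes stayed at 0 under each alternative run. Small sex differences that never passed changed sign. For Nefl in lumbar DRG they were -0.20 with neuron centring and -0.038 to 0.14 over the donors left out. For Nefm there they were 0.003 and 0.091 with the reads scaled by TMM and to their total, and -0.077 to 0.062 over the donors left out. For Prph they were -0.020 in lumbar DRG with neuron centring, and in sacral DRG -0.023 with quantile normalization, -0.056 with neuron centring and -0.037 to 0.093 over the donors left out. The sex by level values turned to -0.15 for Ina and -0.17 for Map1b with neuron centring, and over the donors left out they ran from -0.098 to 0.24 and from -0.20 to 0.14. With the glial covariate Nes turned to -0.54 and Vim to -0.16. The Nefl to Nefm step moved to 1.01 with the shorter Nefm length. The sorted fraction, 5 donors of each sex and unstranded reads over Nefl and Nefm limit these values, and depth does not.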
